A study of Mus musculus with 114 samples.

Results

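The genes described here are the 5 granins Vgf, Scg2, Scg3, Chga and Chgb, together with Scg5 and the prohormone-processing enzymes Pcsk1, Pcsk2 and Cpe. They were chosen by symbol, and the rows were found through the Ensembl identifiers of the deposited count table. All 9 were among its 13101 gene identifiers, and all 9 passed the filter on low counts. The libraries hold RNA that was pulled down with haemagglutinin-tagged ribosomes from the prefrontal cortex of RiboTag mice, in which the tag is switched on in a chosen cell type. Mice of both sexes were sampled at 6 zeitgeber times (ZT, hours after lights on), namely ZT2, ZT6, ZT10, ZT14, ZT18 and ZT22. Of 113 libraries used, 55 carry PV in the title (28 female, 27 male) and 58 carry C (29 female, 29 male), with 8 to 10 libraries per title prefix and time. All groups share the RiboTag genotype, and no treatment is named. No source used here gives the driver of the tag, the strain or the age of the mice.

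The cell type entry of the labels names the opposite type from the title prefix in every library, so libraries are called PV-titled and C-titled. Pvalb, which encodes parvalbumin, ranged from 7.20 to 94.8 CPM (counts scaled by library size) in PV-titled and from 0.159 to 5.05 CPM in C-titled libraries, so the ranges did not overlap. The 12 pyramidal markers summed to 1564 to 3829 CPM in PV-titled and to 3899 to 7840 CPM in C-titled libraries. Both markers therefore followed the titles and not the cell type entries. Counts on genes ranged from 19098081 to 39463892 per PV-titled and from 24559670 to 44077429 per C-titled library. In 8 libraries the profile over all genes correlated much less with the other libraries of its prefix than in the rest: 5 C-titled libraries at ZT2 or ZT6 and 3 PV-titled ones, 1 each at ZT10, ZT14 and ZT22. Whether each library is a separate animal is not stated, so p-values measure the spread between libraries, which may be partly technical.

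Granins are acidic secretory proteins that are packed into dense-core vesicles, the organelles that store neuropeptides and neurotrophins, and several of them are themselves cut into active peptides. In these vesicles the convertases Pcsk1 and Pcsk2 cleave precursors after pairs of basic residues, and carboxypeptidase E (Cpe) then removes the basic residues left at the new ends. Scg5 encodes a chaperone that Pcsk2 needs to mature. Cortical pyramidal neurons and interneurons both make neuropeptides, and several of these genes are known to be induced by neuronal activity.

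All 9 transcripts were lower in the PV-titled libraries. The differences ran from 1.58-fold for Cpe to 3.60-fold for Chgb, with a median log2 difference of -1.49 against 0.01 over all genes tested. By edgeR's quasi-likelihood test with Benjamini-Hochberg adjustment, which gives every adjusted p for a gene in this text, 9 of 9 passed the threshold of 0.05. The background is high in this comparison, since 87.5% of 13053 genes passed in either direction with 43.2% higher in C-titled and 44.3% higher in PV-titled libraries. Over the day, none of the 9 passed the test for a 24 h rhythm in PV-titled libraries, beside 3.10% of all genes tested. With the C title 2 of 9 passed, Scg5 and Pcsk2, a share no higher than the 27.0% of all genes. Without the 5 C-titled libraries whose profiles correlated much less with the others, Scg5 lost its call and Pcsk2 kept it. None of the 9 passed the test between females and males in either kind of library. Among all genes, 0.0307% did so with the PV title and 0.184% with the C title.

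Several granin promoters are known to carry a cyclic AMP response element. The 9 genes were matched to the RefSeq promoter table (build GRCm38.p6, from 250 bases before to 50 after each gene's start), and 7 of the 9 had an entry; Vgf and Cpe did not. The letters TGACGTCA, the palindrome of that element, occurred upstream of the start in 3 of the 7 (Scg2, Chgb and Pcsk1) and in 1.79% of all 32851 promoters in the table. The shorter TGACG, with CGTCA as its form on the other strand and counted also inside the palindrome, occurred in 7 of 7 and in 20.8% of all promoters. CACGTG, the E-box of the clock factors, was in 0 of 7 (7.15% of all), and TGANTCA, an AP-1 site, in 0 of 7 (7.81% of all). A match describes letters in this window and says nothing of binding. The 30 bases around 1 upstream match per gene are shown because the 7 genes share this feature, with the matched letters in capitals, read 5′ to 3′ on the strand of the gene.
Scg2: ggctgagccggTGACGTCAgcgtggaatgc
Chgb: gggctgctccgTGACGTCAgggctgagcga
Pcsk1: ccaggtagatcTGACGTCAagagatggctt
Chga: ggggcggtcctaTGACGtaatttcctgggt
Scg3: gcgctgggtcgcTGACGccatcctcacgcc
Scg5: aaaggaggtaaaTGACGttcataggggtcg
Pcsk2: ctggcgggcgcgCGTCAcccgggctggcgc
Counted from the RefSeq start, the matched letters begin at base -68 in Scg2 (chr1:79440076-79440105, minus strand), at -72 in Chgb (chr2:132781559-132781588, plus strand) and at -78 in Pcsk1 (chr13:75089768-75089797, plus strand). In Chga (chr12:102554885-102554914, plus strand) and Pcsk2 (chr2:143546087-143546116, plus strand) they begin at -44 and -34. In Scg3 (chr9:75684069-75684098, minus strand) and Scg5 (chr2:113829249-113829278, minus strand) they begin at -30 and -175. The stretches of Scg2 and Chgb lie in noncoding exon sequence of the longer GENCODE vM21 gene models, and the other 5 lie outside the GENCODE model of their own gene. That of Pcsk2 lies within the span of Pcsk2os1, a gene on the other strand.

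Chgb, chromogranin B, had the largest difference among the 9. It lies on chromosome 2 of GRCm38 (132781278 to 132795079, ENSMUSG00000027350). The level was 86.4 CPM in the lowest, 161.9 CPM at the median and 286.1 CPM in the highest PV-titled library. In C-titled libraries the lowest, median and highest values were 433, 610.0 and 872 CPM. Every C-titled library thus lay above every PV-titled library. The log2 difference was -1.85 (SE 0.05, adjusted p = 4.53e-62), which placed Chgb 34th by p among 13053 genes.

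Chga, chromogranin A, another core granin of dense-core vesicles, is on chromosome 12 (102554969 to 102565028, ENSMUSG00000021194). PV-titled libraries ranged from 46.4 to 117 CPM with a median of 82.7 CPM. C-titled libraries ranged from 152.8 to 305.4 CPM with a median of 232.6 CPM. These ranges did not overlap either, and the difference was 2.76-fold (log2 -1.47, SE 0.05, adjusted p = 1.53e-54).

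Scg2, secretogranin II, the precursor of the peptide secretoneurin, is on chromosome 1 (79434669 to 79440120, ENSMUSG00000050711). It stood at 67.2 to 224.9 CPM in PV-titled libraries (median 133 CPM) and at 199.8 to 393 CPM in C-titled libraries (median 257.1 CPM). All but 1 of the 55 PV-titled libraries were below the lowest C-titled library. The difference was 2.02-fold (log2 -1.02, SE 0.05, adjusted p = 1.25e-34).

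Scg3, secretogranin III, which binds chromogranin A and helps to hold granins at the vesicle membrane, is on chromosome 9 (75643189 to 75684056, ENSMUSG00000032181). Its spread was narrow, at 46.6 to 101 CPM in PV-titled libraries (median 62.6 CPM) and 98.0 to 146.1 CPM in C-titled libraries (median 116 CPM). Here too 54 of 55 PV-titled libraries lay below the lowest C-titled library. The difference was 1.81-fold (log2 -0.85, SE 0.04, adjusted p = 1.27e-42).

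Vgf, a neurotrophin-inducible granin and the precursor of several secreted peptides, is on chromosome 5 (137026392 to 137033351, ENSMUSG00000037428). It varied far more among libraries than the 4 granins above, from 9.70 to 142.2 CPM in PV-titled libraries (median 70.4 CPM) and from 48.1 to 366 CPM in C-titled libraries (median 216.4 CPM). Only 15 of 55 PV-titled libraries lay below the lowest C-titled one, although all 55 lay below the C-titled median. The difference was 3.18-fold (log2 -1.67, SE 0.11, adjusted p = 3.44e-26). Titles carry library numbers that fall into 2 separate ranges, which stood as a batch term in each fit. Within the first range the log2 difference of Vgf was -1.94 (SE 0.19), and within the second -1.42 (SE 0.12). All 9 genes were lower in PV-titled libraries and passed within each range, from -0.58 (Cpe) to -1.94 (Vgf) in the first and from -0.73 (Cpe) to -1.87 (Chgb) in the second.

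Pcsk2, the later-acting convertase, differed most clearly among the processing genes. It lies on chromosome 2 (143546156 to 143816285, ENSMUSG00000027419). PV-titled libraries held 134 to 317.7 CPM (median 194.8 CPM) and C-titled libraries 392 to 732 CPM (median 582 CPM). The ranges did not overlap, and the difference was 2.88-fold (log2 -1.53, SE 0.04, adjusted p = 3.67e-60). A pair of antisense genes of the count table, Pcsk2os1 and Pcsk2os2, overlap the span of Pcsk2, and the library kit does not mark strand. Reads of Pcsk2 and of these genes therefore cannot be told apart where their exons overlap, which was not checked.

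Scg5, the chaperone of Pcsk2, is on the same chromosome (113776362 to 113829121, ENSMUSG00000023236). The lowest, median and highest PV-titled libraries held 87.7, 122 and 240.1 CPM. In C-titled libraries these values were 287.2, 371 and 802 CPM, again without overlap. The difference was 2.89-fold (log2 -1.53, SE 0.05, adjusted p = 4.09e-49).

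Pcsk1, the early-acting convertase, was by far the least abundant of the 9 and the most variable. It is on chromosome 13 (75089826 to 75134861, ENSMUSG00000021587). Levels were 0.632 to 25.9 CPM in PV-titled libraries (median 6.33 CPM) and 4.16 to 41.7 CPM in C-titled libraries (median 18.7 CPM). A total of 16 of 55 PV-titled libraries lay below the lowest C-titled library, and 1 lay above the C-titled median. The difference was 2.80-fold (log2 -1.49, SE 0.12, adjusted p = 1.55e-20). Within the first and the second range of library numbers it was log2 -1.69 (SE 0.17) and -1.29 (SE 0.17).

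Cpe, which trims the peptides after the convertases, was the most abundant member and had the smallest difference. It is on chromosome 8 (64592542 to 64693054, ENSMUSG00000037852). PV-titled libraries ranged from 814 to 2142 CPM (median 1414 CPM), and C-titled libraries from 1650.4 to 2937 CPM (median 2191 CPM). Of 55 PV-titled libraries 47 lay below the lowest C-titled library. The difference was 1.58-fold (log2 -0.66, SE 0.04, adjusted p = 1.24e-33).

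**Figure D1:**
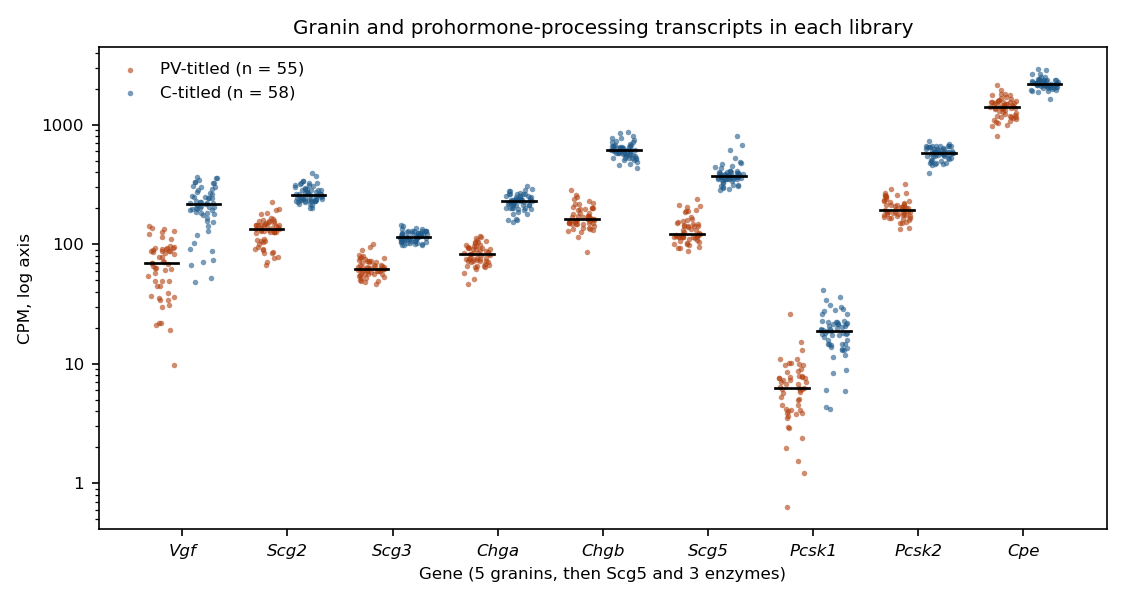
Level of each of the 9 genes in every library, as CPM on a log axis, for 55 PV-titled and 58 C-titled libraries; black bars are medians. The 2 clouds are separate for Chga, Chgb, Scg5 and Pcsk2, overlap by few libraries for Scg2 and Scg3 and by more for Cpe, and overlap most for Vgf and Pcsk1.

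Divided by the length of the merged exons, the levels of the 9 genes followed the same order in both kinds of library: Cpe, Scg5, Chgb, Scg2, Chga, Pcsk2, Vgf, Scg3 and Pcsk1. In C-titled libraries the median was 840 CPM per kb (kilobase of exon) for Cpe, 236.6 for Scg5, 222.6 for Chgb and 102 for Scg2. Chga stood at 84.4 CPM per kb, Pcsk2 at 73.5, Vgf at 72.8, Scg3 at 42.3 and Pcsk1 at 3.34 in the same libraries. The Pcsk2 convertase was thus well above Pcsk1, and Cpe above every granin. PV-titled libraries had medians of 542 CPM per kb for Cpe, 77.5 for Scg5, 59.1 for Chgb and 53.0 for Scg2. Below these came Chga at 30.002 CPM per kb, Pcsk2 at 24.6, Vgf at 23.7, Scg3 at 22.9 and Pcsk1 at 1.13. Neighbours in this order were not always distinct. In C-titled libraries Scg5 and Chgb, Chga and Pcsk2, and Pcsk2 and Vgf had means closer than the larger of their SDs over libraries. In PV-titled libraries this held for Chgb and Scg2, Chga and Pcsk2, Pcsk2 and Vgf, and Vgf and Scg3.

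Other genes listed under prohormone processing or dense-core vesicles did not go one way. These lists are wider than the vesicle machinery of the 9 genes, with Golgi and lysosomal proteins among them. The lists were put together with earlier results of these data known, so their counts are descriptions, to be read against the 43.2% of all genes that were lower and the 44.3% that were higher in PV-titled libraries. Of 15 other prohormone-processing genes tested, 6 were higher and 5 lower in PV-titled libraries, with a median log2 difference of 0.09. Pcsk6 (log2 2.48, SE 0.17) and the Golgi carboxypeptidase Cpd (log2 2.42, SE 0.07) were higher in PV-titled libraries, as was the carboxypeptidase-like Cpxm1 (log2 1.60, SE 0.13). The lysosomal protease Ctsb was lower (log2 -1.34, SE 0.05). Lower too, named after their values were seen, were Ctsl (-1.16, SE 0.04), Qpct (-1.11, SE 0.09), Pcsk1n (-0.69, SE 0.08) and Qpctl (-0.65, SE 0.08). Most dense-core vesicle genes lay on the same side as the 9 genes: of 26 tested, 18 were lower and 6 higher in PV-titled libraries, with a median of -0.56. Syt4, a synaptotagmin (log2 -1.25, SE 0.04), Ptprn, a vesicle membrane protein of the receptor-type phosphatase family (log2 -1.11, SE 0.05), and Hid1, needed for vesicle formation (log2 -1.05, SE 0.05), were lower. The vesicle GTPase Rab3b was higher (log2 2.29, SE 0.09). Genes on the other strand overlap the spans of Ctsb, Syt4, Ptprn and Rab3b. Their reads cannot be told apart where exons overlap, which was not checked either.

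The list of neuropeptide precursors, which also holds the neurotrophin Bdnf, split evenly. Of 21 genes listed 14 were tested, and 7 were higher and 7 lower in PV-titled libraries. Bdnf (log2 -1.53, SE 0.07) was among the lower ones. Whether each is cut by the enzymes described here was not tested. Tac1, the precursor of substance P, had a log2 difference of 5.41 (SE 0.14), Cartpt of 4.09 (SE 0.15), Cort, the precursor of cortistatin, of 3.45 (SE 0.12) and Npy, neuropeptide Y, of 3.12 (SE 0.09). These 4 are the ones with the largest differences in the list. On the side of the 9 genes, named after their values were seen, were Cck, the precursor of cholecystokinin (log2 -2.31, SE 0.07), Grp, of gastrin-releasing peptide (-1.99, SE 0.09), and Pdyn, of dynorphin (-1.64, SE 0.07). Of 22 activity-induced genes, 15 were lower and 1 was higher in PV-titled libraries, with Nptx2, a neuronal pentraxin, at log2 -1.77 (SE 0.10) and the transcription factors Egr3, Egr1 and Egr4 at -1.30 (SE 0.13), -1.27 (SE 0.10) and -1.05 (SE 0.11).

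**Figure D2:**
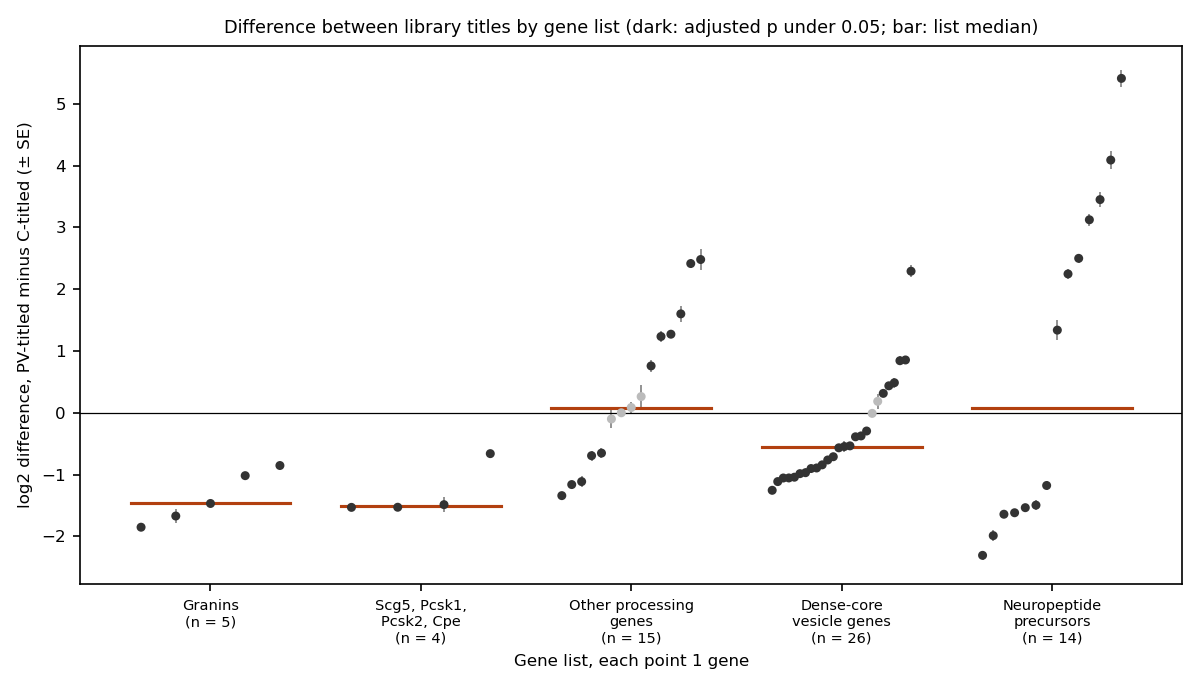
Log2 difference between PV-titled and C-titled libraries for each gene of 5 lists, with SE; dark points passed the threshold and bars are list medians. All 9 points of the first 2 lists are below 0, whereas the 14 neuropeptide precursors lie 7 above and 7 below.

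Transcripts of other cells moved with the title as well. The 10 markers of astrocytes, 10 of microglia, 9 of oligodendrocytes and 10 of endothelial and mural cells that were tested were all higher in PV-titled libraries, and so were all 16 nuclear and mitochondrial RNAs. The summed astrocyte markers ranged from 1168 to 2701 CPM in PV-titled and from 365 to 1374 CPM in C-titled libraries. For microglia the sums were 195.96 to 345 CPM and 46.9 to 106 CPM, for oligodendrocytes 276.95 to 824 CPM and 141.98 to 368 CPM, and for vessel cells 93.1 to 351 CPM and 11.96 to 91.2 CPM, in the same order. Markers of other interneurons did not move together: of 11, 8 were higher and 2 lower in PV-titled libraries, while their sum was lower there, with a median of 823 CPM against 1564 CPM. Nuclear and mitochondrial RNAs summed to 6205 to 57347 CPM and to 1406 to 24411 CPM. No marker that was tested was at 0 over a whole prefix. Only genes that had passed the filter on low counts were looked at, which makes a 0 unlikely beforehand. Pyramidal markers were present in PV-titled libraries at 0.403 of their C-titled median, beside ratios of 0.265 (Chgb) to 0.646 (Cpe) for the 9 genes. The part of these other transcripts in the differences was not tested. In pull-downs of bulk tissue, fewer cells of a type and less RNA per cell cannot be told apart.

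Within each kind of library, several of the 9 genes followed or went against the marker sums, after sex and range of library numbers were taken out of both. Of the relations computed (9 genes with 9 lists in each prefix), 52 had an adjusted permutation p below the threshold for Pearson's r. These p-values take the libraries as exchangeable, although time of day and set number were not taken out. Gene and sum also share the depth and composition of each library, so a small p does not show a tie beyond these. Vgf rose and fell with the summed pyramidal markers over 58 C-titled libraries (r = 0.858, adjusted p = 0.00018, rho = 0.822, adjusted p = 0.000324, both permutation tests, and r = 0.829 without the 2 libraries farthest from the median). Chga had r = 0.699 and rho = 0.629 with the same sum in the same libraries (adjusted permutation p = 0.00018 and 0.000324, r = 0.654 without the 2 farthest). Neither gene followed this sum alone. With the sum of PV interneuron markers Vgf had r = 0.511 in C-titled and 0.575 in PV-titled libraries (adjusted permutation p = 0.000648 and 0.00018). Chga had r = 0.386 and 0.629 with it, in the same order (adjusted permutation p = 0.0135 and 0.00018). With the pyramidal sum Vgf had r = 0.519 in PV-titled libraries (adjusted permutation p = 0.000767). Scg5 went against the pyramidal sum in C-titled libraries (r = -0.49, rho = -0.34, adjusted permutation p = 0.00123 and 0.0484, r = -0.42 without the 2 farthest), and so did Cpe by r alone (r = -0.36, rho = -0.22, adjusted permutation p = 0.0213 and 0.231, r = -0.22 without the 2 farthest). In 55 PV-titled libraries Pcsk2 had r = 0.60 and rho = 0.583 with the pyramidal sum (adjusted permutation p = 0.00018 and 0.000324, r = 0.621 without the 2 farthest). Scg2 had r = -0.06 with the pyramidal sum there (adjusted permutation p = 0.774) and followed the GABAergic markers (r = 0.666, rho = 0.650, adjusted permutation p = 0.00018 and 0.000324, r = 0.608 without the 2 farthest). Cpe followed the astrocyte sum in these libraries (r = 0.490, rho = 0.551, adjusted permutation p = 0.0014 and 0.000463, r = 0.583 without the 2 farthest) and went against the nuclear and mitochondrial sum (r = -0.55, rho = -0.50, adjusted permutation p = 0.000249 and 0.00202, r = -0.54 without the 2 farthest). Pcsk2 and Vgf also went against the latter sum there (r = -0.60 and -0.53, adjusted permutation p = 0.00018 and 0.000709). Chgb did so by r alone (r = -0.44, rho = -0.29, adjusted permutation p = 0.00632 and 0.118). With the sum of other interneuron markers, Scg3 had r = 0.585 in PV-titled libraries and r = 0.452 in C-titled ones (rho = 0.50 and 0.566, adjusted permutation p for r = 0.000249 and 0.000972, r = 0.516 and 0.582 without the 2 farthest). Scg5 had r = 0.587 and r = 0.687 with that sum, in the same order (rho = 0.487 and 0.454, adjusted permutation p for r = 0.00018 and 0.000249, r = 0.493 and 0.495 without the 2 farthest). Abundant genes weigh most in a sum of CPM, and this one was lower in PV-titled libraries although 8 of its 11 genes were higher there. The relation therefore need not hold for other interneurons as a group. The permutation p behind 0.00018 is 1e-05, the smallest that 100000 resamples can give.

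Some members also correlated with library-wide indices of base composition and transcript length. Whether their own GC content or length is the cause was not tested. Each library was given a GC index and a length index, the mean log2 CPM of the 25% of genes highest in GC content, or in length, minus that of the lowest 25%, with the 9 genes left out. Vgf has one of the most GC-rich transcripts, at 64.1% GC (percentile 99.2 among genes tested), and Scg5 one of the shorter ones, at 1208 bases (percentile 8.9). Over 55 PV-titled libraries Vgf followed the GC index (r = 0.669, rho = 0.480, adjusted permutation p = 7.2e-05 and 0.00315), less closely without the 2 farthest libraries (r = 0.496). Over 58 C-titled libraries it did so by r alone (r = 0.464, rho = 0.243, adjusted permutation p = 0.00152 and 0.235, r = 0.333 without the 2 farthest). There Vgf also followed the length index (r = 0.593, rho = 0.424, adjusted permutation p = 7.2e-05 and 0.00648, r = 0.476 without the 2 farthest). Scg5 went against the length index in PV-titled libraries (r = -0.72, rho = -0.69, adjusted permutation p = 7.2e-05 and 0.00012, r = -0.71 without the 2 farthest) and in C-titled libraries (r = -0.76, rho = -0.79, the same adjusted permutation p, r = -0.69 without the 2 farthest). The length index itself ran from 0.47 to 1.32 in PV-titled and from 0.09 to 0.75 in C-titled libraries. With both indices as further terms, a setting chosen after seeing the data, the log2 difference between PV-titled and C-titled libraries was -0.97 (SE 0.05) for Scg5 and -2.25 (SE 0.15) for Vgf. All 9 genes still passed there and kept their direction. The relations with the 2 indices numbered 36, of which 10 passed for r, with the limits of the permutation p given above. Here too no share over all genes was computed.

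**Figure D3:**
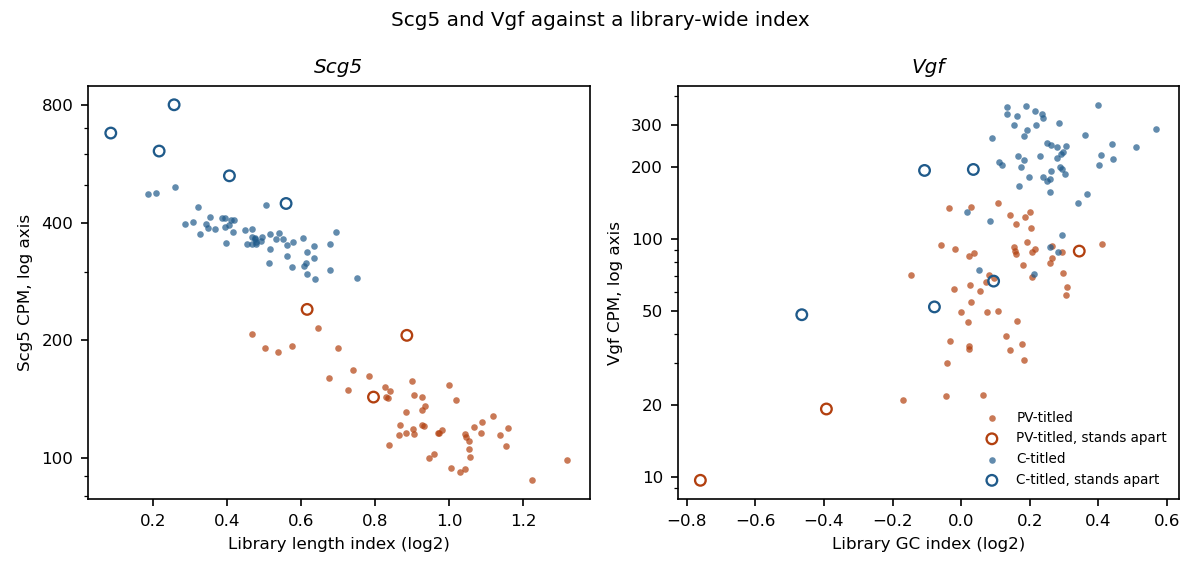
Scg5 against the length index (left) and Vgf against the GC index (right) of each library, CPM on a log axis, with open circles for the 8 libraries that stand apart. The 5 C-titled libraries that stand apart hold 448 to 802 CPM of Scg5, and the PV-titled library with the lowest GC index (-0.76) has the lowest Vgf (9.70 CPM).

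Among themselves the 9 genes did not vary as one group. Vgf and Chga had r = 0.585 in PV-titled libraries and r = 0.748 in C-titled ones, and Chga and Chgb 0.503 and 0.524. Vgf and Scg5 went apart, at -0.24 and -0.73. Pcsk2 and its chaperone Scg5 were at -0.14 and -0.30. These correlations of log2 CPM, after sex and range were removed, describe libraries that share depth and composition, so they carry no test. By the mean of both correlations, the gene closest to Vgf was Mapre3 (0.861 over 55 PV-titled libraries, 0.918 over 58 C-titled ones), and the next were Dnm1 and Dagla. Scg5 was closest to Psmb6 (0.797 and 0.945), Atp5o and Cycs. Chga was closest to Tuba4a (0.583 and 0.767), then to Vgf and Tubb3, and Chgb to Ckmt1 (0.518 and 0.763), Tuba4a and Got1. For Pcsk2 the closest was Pcsk2os2 (0.822 and 0.722), the antisense gene that overlaps it, then Nell2 and Pld3. Pcsk1 was closest to Slc39a10 (0.509 and 0.880), Vps35 and Ubqln1, and Cpe to Mal2 (0.679 and 0.678), Dynlt3 and Tmem30a. Scg2 and Scg3 had no gene as close: their highest were Adssl1 (0.552 and 0.553) and Ncl (0.661 and 0.493).

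Over the day the PV-titled libraries gave no call among the 9 genes, where 3.10% of 13047 genes passed the test for a 24 h curve. None of the 9 had an unadjusted p below 0.05 in edgeR or a call by DESeq2. The median amplitude, measured in log2 from the mean to the peak, was 0.13 for the 9 and 0.11 for all genes. Adjusted p ran from 0.322 (Chga) to 0.952 (Pcsk2). The fitted amplitudes were 0.29 (SE 0.15) for Pcsk1, 0.22 (SE 0.11) for Vgf and 0.16 (SE 0.07) for Scg2, and from 0.03 to 0.13 for the other 6. Vgf medians were lowest at ZT10 (49.7 CPM) and highest at ZT18 (88.5 CPM), yet values at ZT18 alone spanned 30.9 to 142.2 CPM. Pcsk1 medians lay between 3.90 CPM at ZT18 and 7.72 CPM at ZT10. Scg2 medians lay between 108 CPM at ZT22 and 150.3 CPM at ZT6. Chgb was lowest at ZT14 (median 149.4 CPM) and highest at ZT18 (183.2 CPM), and Chga ran from 75.2 CPM at ZT14 to 90.5 CPM at ZT6. Differences between times were within the range of libraries at a single time for each of these 5 genes.

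In C-titled libraries 2 of the 9 passed, where 27.0% of 13029 genes did. Their median amplitude was 0.09, against 0.12 over all genes. Pcsk2 had an amplitude of 0.11 (SE 0.03), a 1.17-fold change from trough to peak, with a fitted peak at ZT10.95 (adjusted p = 0.0241). The lowest, median and highest C-titled libraries held 392, 575 and 647 CPM of Pcsk2 at ZT2, 465.6, 609.8 and 692 CPM at ZT6, and 499, 648 and 667 CPM at ZT10. At ZT14 the same 3 values were 551, 607 and 732 CPM, at ZT18 489, 563 and 613 CPM, and at ZT22 475, 532 and 600.1 CPM. Medians were thus highest at ZT10 and lowest at ZT22, and the ranges of all 6 times overlapped. The call was lost in females or males alone and with time as a factor. It was lost too in each of the 2 ranges of library numbers alone (adjusted p = 0.132 and 0.262) and without set 1, 2, 3 or 4 of the libraries, numbered by a digit in the titles. The adjusted p went up to 0.354 over the 15 alternatives that fit a 24 h curve, the highest in females alone. The amplitude itself moved little, at 0.11 and 0.12 in the 2 ranges and between 0.09 and 0.11 without one of these sets. The call held without the 5 C-titled libraries that stand apart.

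Scg5 had an amplitude of 0.16 (SE 0.05), or 1.25-fold from trough to peak, with a fitted peak at ZT4.88 (adjusted p = 0.03). Its lowest, median and highest values were 287.2, 383 and 802 CPM at ZT2, 337, 386 and 679 CPM at ZT6, and 289.7, 384 and 493.4 CPM at ZT10. At ZT14 they were 295.7, 359 and 414 CPM, at ZT18 302.5, 359 and 407 CPM, and at ZT22 310.4, 359.8 and 445 CPM. The medians differed little, and the high values sat at ZT2 and ZT6. These are the times of the 5 C-titled libraries that stand apart, in which Scg5 stood at 802 and 528 CPM at ZT2 and at 611, 679 and 448 CPM at ZT6. Without them the amplitude was 0.05 and the adjusted p was 0.505, and without set 3 it was 0.04 with an adjusted p of 0.599. With the GC and length index as terms the amplitude was 0.02765, with the peak at ZT11.99 and an adjusted p of 0.645. Within the first and the second range of library numbers alone the amplitude was 0.18 (SE 0.07) and 0.18 (SE 0.06), with an adjusted p of 0.302 and 0.0851.

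The other 7 genes did not pass in C-titled libraries. Scg3 came nearest (amplitude 0.07, SE 0.03, adjusted p = 0.0794), with medians from 109 CPM at ZT18 to 123 CPM at ZT10. Vgf medians ran from 187.9 CPM at ZT2 to 261.5 CPM at ZT22 (amplitude 0.11, SE 0.11, adjusted p = 0.711), and Pcsk1 medians from 16.2 CPM at ZT14 to 20.7 CPM at ZT2 (amplitude 0.22, SE 0.10, adjusted p = 0.189). Chgb medians lay between 552 CPM at ZT14 and 643 CPM at ZT2, and those of Chga between 212.7 CPM at ZT2 and 247.1 CPM at ZT14. Scg2 medians lay between 237.3 CPM at ZT18 and 287.1 CPM at ZT6, and those of Cpe between 2069.8 CPM at ZT18 and 2264 CPM at ZT14. Neither called gene had its peak from ZT12 to ZT24, where 11.2% of all genes passed with a peak (1.81% in PV-titled libraries). Of the genes called, 41.6% in C-titled libraries and 58.4% in PV-titled ones had their peak in that window. For activity-induced genes the counts were 14 of 18 called and 8 of 8 called, in the same order. Arc, an activity-induced synaptic gene, had an amplitude of 0.99 (SE 0.16, peak ZT18.32) in PV-titled and 1.02 (SE 0.19, peak ZT16.22) in C-titled libraries.

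**Figure D4:**
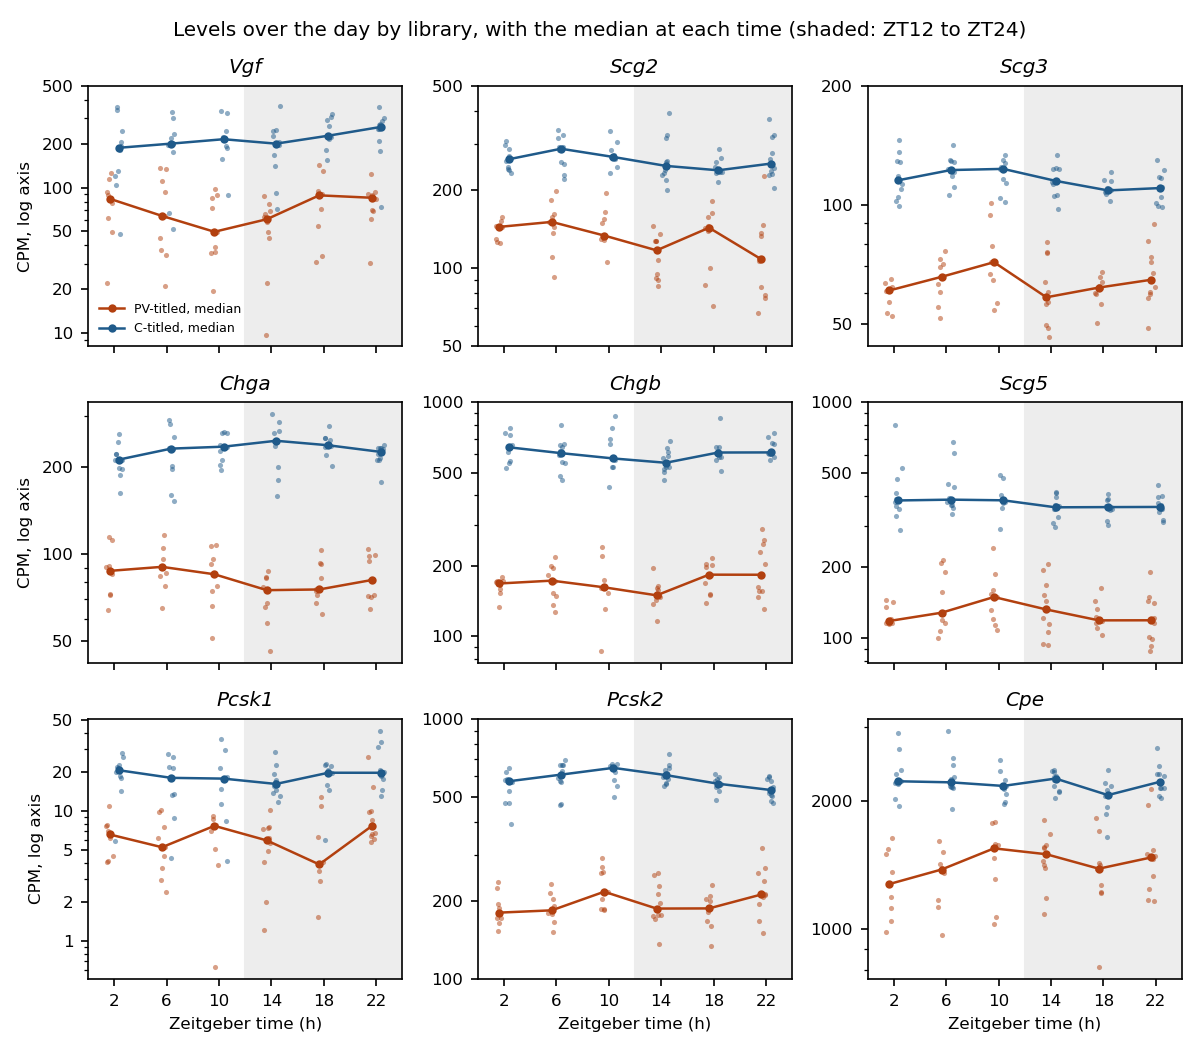
Level of each of the 9 genes by zeitgeber time (h), CPM on a log axis; points are libraries, lines join the medians at each time, and ZT12 to ZT24 is shaded. The lines of the C-titled libraries stay above those of the PV-titled libraries at all 6 times, and the spread at most times is wider than the movement of the medians.

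In the related lists the counts of rhythmic genes are to be read against 3.10% of all genes in PV-titled libraries and 27.0% in C-titled ones. Of 15 other processing genes, 1 passed in PV-titled libraries and 5 in C-titled libraries. The one in PV-titled libraries was Pcsk4, a convertase best known from germ cells (amplitude 0.50, SE 0.09, peak ZT11.87, adjusted p = 0.00125), which also passed in C-titled libraries (amplitude 0.67, SE 0.06, peak ZT15.24, adjusted p = 5.19e-11). Pcsk5 peaked at ZT5.76 (amplitude 0.24, SE 0.05) and Pcsk7 at ZT17.68 (amplitude 0.24, SE 0.06) in C-titled libraries, and Pcsk7 overlaps Rnf214 and Tagln on the other strand. Of 26 dense-core vesicle genes, 4 passed in C-titled libraries, among them Unc13a, a vesicle priming factor (amplitude 0.14, SE 0.03, peak ZT8.02), Doc2a (0.20, SE 0.06, peak ZT14.75) and Cadps (0.10, SE 0.03, peak ZT0.44). Unc13a and Doc2a overlap genes on the other strand. Of 14 neuropeptide precursors, Nppc, the precursor of C-type natriuretic peptide, passed in PV-titled libraries (amplitude 0.48, SE 0.09, peak ZT7.77). In C-titled libraries Nppc (0.23, SE 0.05, peak ZT8.52), Adcyap1 (0.22, SE 0.04, peak ZT5.30) and Bdnf, a neurotrophin carried in dense-core vesicles (0.19, SE 0.05, peak ZT2.51), passed.

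A difference in rhythm between the 2 kinds of library was tested on all libraries together. None of the 9 passed in edgeR or DESeq2, where 0.559% of 13053 genes passed in edgeR and 1759 had an unadjusted p below 0.05, 1 of the 9 among them. This was Chga (unadjusted 0.00572, adjusted p = 0.165). Its fitted peak was at ZT3.88 in PV-titled libraries and at ZT14.21 in C-titled ones, and neither of these curves passed on its own. The adjusted p of the other 8 ran from 0.545 to 0.960.

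Between females and males 0 of 9 passed, where 0.0307% of genes did in PV-titled libraries and 0.184% in C-titled ones. At an unadjusted p below 0.05 there were 362 such genes in PV-titled libraries, none of the 9 among them, and 992 in C-titled ones, with 2 of the 9. By DESeq2 no member passed either. In C-titled libraries Scg2 ranged from 214.8 to 393 CPM in females (median 275.7 CPM) and from 199.8 to 374 CPM in males (median 243.4 CPM). The log2 difference was 0.14 (SE 0.05, unadjusted p = 0.00454, adjusted p = 0.33), and the ranges overlapped almost throughout. Chga was at log2 0.13 (SE 0.05, adjusted p = 0.536) in the same direction. In PV-titled libraries the largest difference was that of Pcsk1, at log2 -0.30 (SE 0.21), where the minus sign marks higher values in males.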

How the data were processed

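RNA on tagged ribosomes was measured in 113 of the 114 libraries in the labels; 1 column whose sex did not match a title was left out. The values are raw counts of reads per gene as deposited by the authors in a single table. Per the submitters' processing notes FastQC, HTSeq and DESeq2 were used on mouse build GRCm38. Which aligner and annotation served is not given in the sources used here, nor are versions. Of 13101 identifiers 13051 matched a GENCODE vM21 symbol. The row of reads on no gene held 55.5 to 67.7% of counts in PV-titled and 51.9 to 59.4% in C-titled libraries and was left out of library sizes and tests. Intervals for counting error were not computed, since reads without molecular identifiers are not independent molecules.

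Tests used R 4.3.3 and edgeR 4.0.16: TMM scaling, filterByExpr with groups defined by prefix, time and sex, quasi-likelihood F tests and Benjamini-Hochberg adjustment over all genes tested, threshold 0.05. The PV-titled minus C-titled difference was fitted with time, sex and range of library numbers as terms. Rhythm was tested per prefix by a joint test of cosine and sine terms (24 h period), and between prefixes by their products with the prefix; sex was tested in the same fits. CPM are edgeR's, after TMM scaling. For correlations, log2 CPM with a prior count of 2 were used. Standard errors of amplitudes come from the 2 coefficients. Alternatives were DESeq2 1.42.0, scaling by library total only, no filter, each range, sex or set left out or alone, time as a factor and the set number as a block. Added after seeing the data were the fits without the libraries that stand apart (median correlation more than 5 median absolute deviations below that of their prefix) and those with GC and length indices. The test scripts were tested on simulated data. No library was a copy of another in 100 PV-titled and 112 C-titled pairs of the same group. Named genes outside the 9 are up to 4 per list with the largest difference between prefixes and up to 3 with the smallest rhythm p, among those called, and for likeness the 3 genes with the highest mean correlation. The members and lists were chosen with earlier results of these data known.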

Additional observations from a re-analysis of the deposited data

Results flagged for a closer look

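For each of the 9 genes the libraries of 1 prefix and time were checked for a single value far from the rest, by Dixon's ratio of the gap to the whole range at the 95% level. Of 108 such groups 6 had one, and chance flags about 1 in 20. In PV-titled libraries Scg2 reached 224.9 CPM in a female library at ZT22, where the next value was 146.4 CPM, and Pcsk1 reached 25.9 CPM in a male library at ZT22, next to 15.3 CPM. The latter is one of the 3 PV-titled libraries that stand apart. In C-titled libraries Scg5 reached 802 CPM in a female library at ZT2, next to 528 CPM, and this library stands apart too. Chga was low in a male library at ZT22 (177.8 CPM, next to 211.8 CPM). At ZT18 a single male C-titled library held both the highest Chgb (856 CPM, next to 646 CPM) and the lowest Pcsk1 (6.05 CPM, next to 14.7 CPM). It belongs to set 5. High Chgb with low Pcsk1 was also seen in some C-titled libraries of that set at ZT6 and ZT10, and not in the others of the set.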

How the results depend on the processing

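All 9 genes were lower in PV-titled libraries and passed in each of 15 alternatives, with log2 differences of -2.25 to -1.42 for Vgf, -1.72 to -0.97 for Scg5 and -0.73 to -0.46 for Cpe. With scaling by library total only, the log2 median over genes went from 0.01 to 0.21. In C-titled libraries the 2 members called in the rhythm test became 1 with library total only, without the libraries that stand apart and with GC and length terms, 0 in the first range, the second range, females or males alone and with time as a factor, and 0 to 2 with 1 set left out. For Scg5 the amplitude with GC and length terms was 0.02765, with the peak over 6 h away from the one reported. The cause was not tested. The share of genes called in C-titled libraries was 2.90% in the first range, 10.2% in the second, 2.07% in females, 3.63% in males, 10.03% with time as a factor, and 15.2% to 23.9% with 1 set left out. In PV-titled libraries the shares were 0.153%, 0.307%, 0.997%, 0.0613%, 1.196% and 0.728% to 2.61% in the same order, and no member was called in any of 16 alternatives. Genes with a difference in rhythm made up 1.33% by DESeq2 and 0.138% without the libraries that stand apart, and genes with a sex difference in C-titled libraries 0.299% by DESeq2 and 0.0614% to 0.161% with 1 set left out.

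Of 53 pairs of PV-titled and C-titled libraries of the same time, sex and set number, 9 had a correlation of deviations above 0.1. The correlations ran from -0.29 to 0.41, with a median of 0.01. Low values between pull-downs of different cells cannot exclude a shared animal or preparation, so whether the numbers pair the libraries stays unknown. The main fits did not pair them. With the set number as replicate block, 87.6% of genes passed between prefixes, 3.33% in PV-titled and 25.4% in C-titled rhythms, and 9, 0 and 2 members passed. Depth limits Pcsk1 most, whose count in a library went down to 17.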
